A study of Mus musculus with 16 samples.

Results

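Gfi1 and Gfi1b encode the zinc finger transcriptional repressors GFI1 and GFI1B, and the regions of accessible chromatin around them were followed in 16 ATAC-Seq libraries of mouse hematopoietic progenitors. The members were all regions formed by the 49000 most significant peaks of each library, on chromosomes 1 to 19 and X, whose nearest edge lay within 100 kb of the 5′ end of either gene in GENCODE M21 (mm10). This gave 56 regions of the 90549 in the series: 21 around Gfi1 and 35 around Gfi1b. Gfi1 lies on the minus strand of chromosome 5 (ENSMUSG00000029275.18, chr5:107716657-107726036), and Gfi1b on the minus strand of chromosome 2 (ENSMUSG00000026815.14, chr2:28609450-28621982). A region is named here by the distance of its centre from the gene 5′ end, with a minus sign for upstream.

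GFI1 and GFI1B bind DNA through C-terminal zinc fingers and recruit, through an N-terminal SNAG domain, the histone demethylase LSD1 (Kdm1a) with CoREST proteins and histone deacetylases. GFI1 is known for restraining monocytic genes in granulocyte development and for maintaining stem cells, and GFI1B for its roles in erythroid cells and megakaryocytes. Both genes have distal enhancers occupied in blood progenitors by GATA, ETS and RUNX family factors, GATA2 among them.

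ATAC-Seq uses the Tn5 transposase to cut and tag DNA that is not covered by nucleosomes, so that a peak marks accessible chromatin. All libraries came from fetal liver Lin- progenitors immortalized with retroviral, estrogen-regulated HoxB8, kept in β-estradiol, infected for 3 d with a retrovirus that carries GFP, and sorted for GFP. Each of the 4 groups had 4 libraries from 50000 cells. The hi-77+/+ empty cells kept the Gata2 -77 enhancer and received empty vector. The hi-77-/- empty cells lacked this enhancer, which depletes GATA2, and also received empty vector. The hi-77-/- GATA2 cells expressed murine Gata2 cDNA from the vector, and the hi-77-/- 9aa-Ins cells expressed a Gata2 cDNA with an insertion that lengthens the spacer between the zinc fingers. The 2 genotypes are different immortalized populations, so an effect of the deletion and a difference between these populations cannot be told apart. The study's methods call the libraries of the hi-77-/- groups biological replicates, but neither the methods nor the labels say whether the libraries of a group came from separate cultures, so p-values measure the spread between these libraries, which may be technical.

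The files hold peak lists of 50195 to 112267 peaks per library and no read counts, so sequencing depth is unknown. The values below are rank scores: 100 for the most significant peak of a library, falling evenly with rank to near 0 for peak 49000, and 0 where no such peak overlapped the region. A score of 0 therefore means absence from the top 49000 peaks, not closed chromatin. The -log10 p of peak 49000 was 5.35 to 7.43 in the GATA2 libraries and 8.75 to 11.7 in the 9aa-Ins libraries, so the lists reach different significance. From 76 to 78 kb upstream of Gata2, peaks covered 1196 to 1552 bp in the hi-77+/+ libraries and 0 to 853 bp in the hi-77-/- libraries. A promoter peak was present in all 16 libraries at 7 of 8 progenitor genes, Cd48 being the exception, and in 0 libraries at all 4 hepatocyte, 3 endothelial and 2 annotated T cell genes. At the other marker genes a promoter peak was present in 0 to 11 libraries, highest for the B cell gene Cd79a, which had one in 3 hi-77+/+ empty, 4 hi-77-/- empty, 0 GATA2 and 4 9aa-Ins libraries.

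The sequences below are 300 bp around the median summit of the member regions on which the results turn, read from the plus strand of GRCm38.p6 (mm10). Capitals mark matches on either strand to the motif bound by GATA factors, which is AGATAA or the same with T as the first base or G as the last, written WGATAR. The first 3 lie around Gfi1 and had higher scores with GATA2 than with empty vector.
Gfi1 -33.5 kb, chr5:107759122-107759421: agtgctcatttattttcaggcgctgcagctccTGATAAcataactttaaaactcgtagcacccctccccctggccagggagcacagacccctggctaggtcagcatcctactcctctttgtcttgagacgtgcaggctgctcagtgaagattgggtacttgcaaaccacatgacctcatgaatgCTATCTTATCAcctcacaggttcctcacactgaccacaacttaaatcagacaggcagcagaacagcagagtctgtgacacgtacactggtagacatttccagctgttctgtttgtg
Gfi1 +17.8 kb, chr5:107708048-107708347: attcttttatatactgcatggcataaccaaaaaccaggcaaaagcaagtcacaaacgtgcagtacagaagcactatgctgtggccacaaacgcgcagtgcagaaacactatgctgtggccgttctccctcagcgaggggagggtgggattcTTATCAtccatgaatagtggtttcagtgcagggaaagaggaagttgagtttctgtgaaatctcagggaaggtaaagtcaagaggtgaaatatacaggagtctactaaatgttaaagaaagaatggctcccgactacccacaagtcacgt
Gfi1 -28.9 kb, chr5:107754814-107755113: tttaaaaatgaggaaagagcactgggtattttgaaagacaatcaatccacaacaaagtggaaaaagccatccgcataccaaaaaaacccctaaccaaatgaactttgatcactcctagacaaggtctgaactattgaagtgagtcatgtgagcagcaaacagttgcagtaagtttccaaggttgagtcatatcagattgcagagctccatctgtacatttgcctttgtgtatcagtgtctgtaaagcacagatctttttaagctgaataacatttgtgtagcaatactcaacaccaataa
The next 4 lie within 100 kb of Gfi1b. The first and second had lower scores with GATA2 than with empty vector, the third had higher scores, and the last differed between the genotypes.
Gfi1b +15.8 kb, chr2:28605990-28606289: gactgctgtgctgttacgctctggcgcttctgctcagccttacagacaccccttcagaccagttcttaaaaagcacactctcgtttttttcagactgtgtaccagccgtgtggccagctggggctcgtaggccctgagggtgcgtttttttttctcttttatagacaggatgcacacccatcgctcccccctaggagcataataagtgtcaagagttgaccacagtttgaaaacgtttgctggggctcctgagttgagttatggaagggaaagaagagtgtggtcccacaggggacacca
Gfi1b +83.6 kb, chr2:28538351-28538650: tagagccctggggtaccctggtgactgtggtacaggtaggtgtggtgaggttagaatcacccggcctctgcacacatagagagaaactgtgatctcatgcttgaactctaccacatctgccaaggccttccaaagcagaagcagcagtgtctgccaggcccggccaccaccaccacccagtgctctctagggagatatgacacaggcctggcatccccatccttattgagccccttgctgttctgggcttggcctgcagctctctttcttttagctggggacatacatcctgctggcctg
Gfi1b -79.9 kb, chr2:28701608-28701907: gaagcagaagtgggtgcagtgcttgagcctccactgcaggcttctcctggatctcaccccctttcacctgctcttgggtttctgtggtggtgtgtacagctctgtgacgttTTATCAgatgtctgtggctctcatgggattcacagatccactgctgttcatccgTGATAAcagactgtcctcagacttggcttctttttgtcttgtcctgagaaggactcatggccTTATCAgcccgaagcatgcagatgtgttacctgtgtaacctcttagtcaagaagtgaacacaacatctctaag
Gfi1b +3.0 kb, chr2:28618868-28619167: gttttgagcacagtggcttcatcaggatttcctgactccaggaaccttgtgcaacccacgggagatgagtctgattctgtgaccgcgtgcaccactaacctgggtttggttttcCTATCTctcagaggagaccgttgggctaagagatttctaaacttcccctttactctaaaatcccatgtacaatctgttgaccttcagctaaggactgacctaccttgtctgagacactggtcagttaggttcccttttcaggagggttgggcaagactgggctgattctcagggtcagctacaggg
The Gfi1 -33.5 kb window held 3 WGATAR matches, of which 2 overlap by 1 base, and the Gfi1b -79.9 kb window held 3. The Gfi1 +17.8 kb and Gfi1b +3.0 kb windows held 1 each, and the Gfi1 -28.9 kb, Gfi1b +15.8 kb and Gfi1b +83.6 kb windows held 0. Of all 90515 windows of this length in the series, 36.6% held WGATAR, against 10 of 21 around Gfi1 and 10 of 35 around Gfi1b. The RUNX motif TGTGGT stood in 30.7% of all windows, in 4 of 21 around Gfi1 and in 16 of 35 around Gfi1b, with 2 matches at Gfi1 -33.5 kb, 2 at Gfi1b +15.8 kb and 3 at Gfi1b +83.6 kb. The ETS motif GGAAGT stood in 33.2% of all windows and in 7 of 21 and 15 of 35 member windows. The GFI1 motif, bound by GFI1 proteins themselves, stood in 0.676% of all windows, in 0 of 21 windows around Gfi1 and in 1 of 35 around Gfi1b, at +30.3 kb. A composite of CANNTG followed by WGATAR after 6 to 14 bases, the arrangement bound by TAL1 with GATA factors, stood in 2.79% of all windows and at Gfi1b -79.9 kb, +25.7 kb and +23.0 kb and Gfi1 +20.1 kb.

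The windows of the 2 genes differed in density. Around Gfi1, 4 of 21 regions were open in every one of the 16 libraries and 6 in a single library, and Gfi1 had the nearest gene 5′ end for 18 of 21. Around Gfi1b, 15 of 35 were open in every library and 8 in a single library, but for 28 of 35 regions the 5′ end of another gene, such as Ralgds, Cel, Gtf3c5, Tsc1, Spaca9 or Ak8, was nearer. Membership is by distance alone and does not say which gene a region acts on.

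The number of member regions with a peak, counted per library, differed between groups at Gfi1. In hi-77+/+ empty libraries 7, 9, 10 and 8 regions were open, and in hi-77-/- empty libraries 6, 4, 5 and 5. GATA2 libraries had 9, 9, 8 and 9 open regions and 9aa-Ins libraries 7, 4, 8 and 6. The GATA2 values lay above every hi-77-/- empty value, whereas the 9aa-Ins values overlapped those of the other 3 groups. The mean was 3.50 lower with the deletion (SE 0.802, adjusted p = 0.00443, limma over 19368 genes) and 3.75 higher with GATA2 than with empty vector in hi-77-/- cells (adjusted p = 0.00918). Over all genes tested, 32.6% were called in the first comparison and 11.4% in the second. These 2 differences came largely from different regions. A top-49000 peak stood only in hi-77+/+ empty libraries at +38.0, +2.3, -38.7, -57.1, -63.6 and -68.1 kb. It stood only in GATA2 libraries at -28.9, -10.3 and -46.2 kb. At +17.8 kb it stood in 4 GATA2, 1 hi-77+/+ empty and 1 9aa-Ins library, and at +14.2 kb in 2 GATA2 and 2 hi-77+/+ empty libraries. Some Gfi1 peaks had the same -log10 p as peak 49000 of their library, where fold and position decided entry. In hi-77+/+ empty libraries these stood at +47.5, +44.5, +41.4, +38.0, +17.8, -2.0, -38.7, -57.1 and -68.1 kb. In GATA2 libraries they stood at +44.5, +41.4, -28.9 and -46.2 kb, and in 9aa-Ins libraries at +17.8 kb. The hi-77-/- empty libraries had no such peak here. What these ties add to the differences was not tested. The GATA2 difference includes +17.8 and -28.9 kb, so it is no separate support for them. For 9aa-Ins the difference was 1.25 against hi-77-/- empty (adjusted p = 0.535, 2.05% of genes called) and -2.50 against GATA2 (adjusted p = 0.0531, 13.5% of genes called). With all deposited peaks, 9aa-Ins exceeded hi-77-/- empty by 5.25 (adjusted p = 0.0228), the GATA2 difference of 3.50 was no longer called (adjusted p = 0.126), and 9aa-Ins exceeded GATA2 by 1.75 (adjusted p = 0.254). The Gfi1 count was also not called with lists 50% as long, at -0.25 for the deletion (adjusted p = 0.509) and 0.50 for GATA2 (adjusted p = 0.274).

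At Gfi1b the count of open regions stayed between 21 and 24 in all 16 libraries. It was 24, 23, 21 and 24 in hi-77+/+ empty, 23, 23, 22 and 21 in hi-77-/- empty, 21, 24, 22 and 22 in GATA2 and 22, 21, 22 and 23 in 9aa-Ins libraries. No comparison was called (adjusted p of 0.534 to 1), although the peaks that made up the count differed, as described next. With lists 50% as long the Gfi1b count was 6 higher with the deletion (adjusted p = 9.13e-06), 3 lower with GATA2 (adjusted p = 0.00631) and 2.50 higher with 9aa-Ins than with GATA2 (adjusted p = 0.0150).

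**Figure D1:**
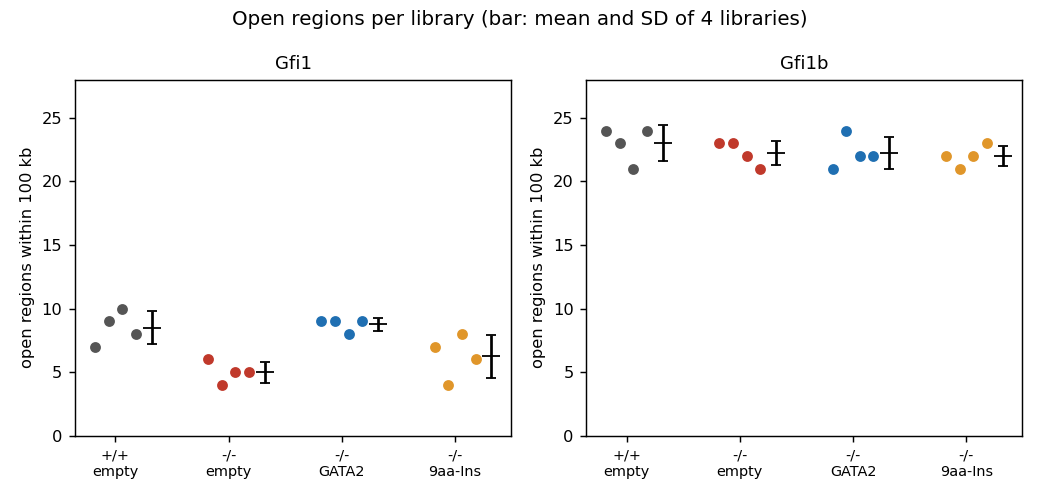
Number of regions with a top-49000 peak within 100 kb of the Gfi1 (left) and Gfi1b (right) 5′ end, 1 point per library, with the mean and SD of the 4 libraries in each group; the vertical axis starts at 0. The 4 GATA2 points of Gfi1 sit at 8 and 9, above the hi-77-/- empty points at 4 to 6, and the Gfi1b points stay between 21 and 24 in every group.

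Rank scores were tested by limma for the 37 member regions with a peak in at least 4 of 16 libraries, 11 around Gfi1 and 26 around Gfi1b, with p-values adjusted over all 57174 such regions. In all, 22 of the 37 regions were called in at least 1 of the 4 comparisons, 5 around Gfi1 and 17 around Gfi1b, where 56.9% of all regions tested were. Of the 37, 11 had peaks in fewer than 4 libraries outside a single group. Such a region would not have passed the filter without that group, so the 4 of them that were called (Gfi1 +17.8 and -28.9 kb, Gfi1b +25.7 and -32.5 kb) are described with no test, and counts that include them support nothing. The remaining 19 members had a peak in 1 to 3 libraries and were not tested.

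Around Gfi1, 3 regions had higher scores in GATA2 than in hi-77-/- empty libraries and 0 had lower scores, where 8.52% of all regions tested were higher and 12.4% lower. In 9aa-Ins minus GATA2, 3 were lower and 0 higher, where 8.23% of all regions tested were lower. Of the 3 regions, +17.8 and -28.9 kb passed the filter only through the GATA2 libraries, which leaves -33.5 kb as the 1 that did not. These 2 comparisons share the GATA2 libraries, so the values of each region are given side by side.

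The Gfi1 -33.5 kb region (chr5:107759025-107759967) lies in an intron of Evi5, a neighbouring gene that encodes a GTPase-activating protein. It had a peak in all 16 libraries. Scores were 87.2, 86.0, 87.6 and 83.7 in hi-77+/+ empty and 89.2, 85.5, 83.6 and 77.7 in hi-77-/- empty libraries. They were 98.2, 96.4, 97.4 and 96.5 in GATA2 and 61.4, 69.7, 68.8 and 71.2 in 9aa-Ins libraries. All GATA2 values were above, and all 9aa-Ins values below, those of both empty vector groups, which overlapped each other. GATA2 exceeded hi-77-/- empty by 13.1 (SE 2.30, adjusted p = 0.000350), and 9aa-Ins fell by 16.2 from hi-77-/- empty (adjusted p = 0.000159) and by 29.3 from GATA2 (adjusted p = 1.12e-07). The deletion difference was -2.13 (adjusted p = 0.502). The fold enrichment of these peaks, which is not scaled between libraries, was 17.7 to 20.96 in 9aa-Ins, 19.8 to 26.1 in hi-77-/- empty and 26.5 to 36.8 in GATA2 libraries, so the 9aa-Ins and hi-77-/- empty ranges overlapped on that scale. When a peak had to cover 50% of this region of 943 bp, the 3 calls were lost (adjusted p of 0.30 to 0.974), since peaks of 368 to 896 bp were then counted or dropped by their width.

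The other 2 Gfi1 regions were weaker peaks. The Gfi1 +17.8 kb region (chr5:107708094-107708331) is intergenic, beyond the 3′ end of Gfi1. Its scores in GATA2 libraries were 38.4, 62.4, 19.9 and 25.4. It scored 0 in all hi-77-/- empty libraries, 6.95 in 1 hi-77+/+ empty library and 3.18 in 1 9aa-Ins library, and 0 in the rest of these. No value of another group reached the lowest GATA2 value, and the GATA2 mean was 36.5, against 0 in hi-77-/- empty. In the full lists the region had a peak in 3 hi-77+/+ empty, 2 hi-77-/- empty, 4 GATA2 and 4 9aa-Ins libraries.

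The Gfi1 -28.9 kb region (chr5:107754785-107755072), also in an Evi5 intron, had scores of 2.82, 26.2, 45.6 and 53.8 in GATA2 libraries and 0 in all 12 others. The GATA2 values ran over a wide range, with a mean of 32.1. This region and +17.8 kb were the 2 Gfi1 members that went from 0 of 4 hi-77-/- empty to 4 of 4 GATA2 libraries, a pattern seen in 1.73% of all regions. The full lists held a peak at -28.9 kb in 1, 1, 4 and 3 libraries of the hi-77+/+ empty, hi-77-/- empty, GATA2 and 9aa-Ins groups.

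**Figure D2:**
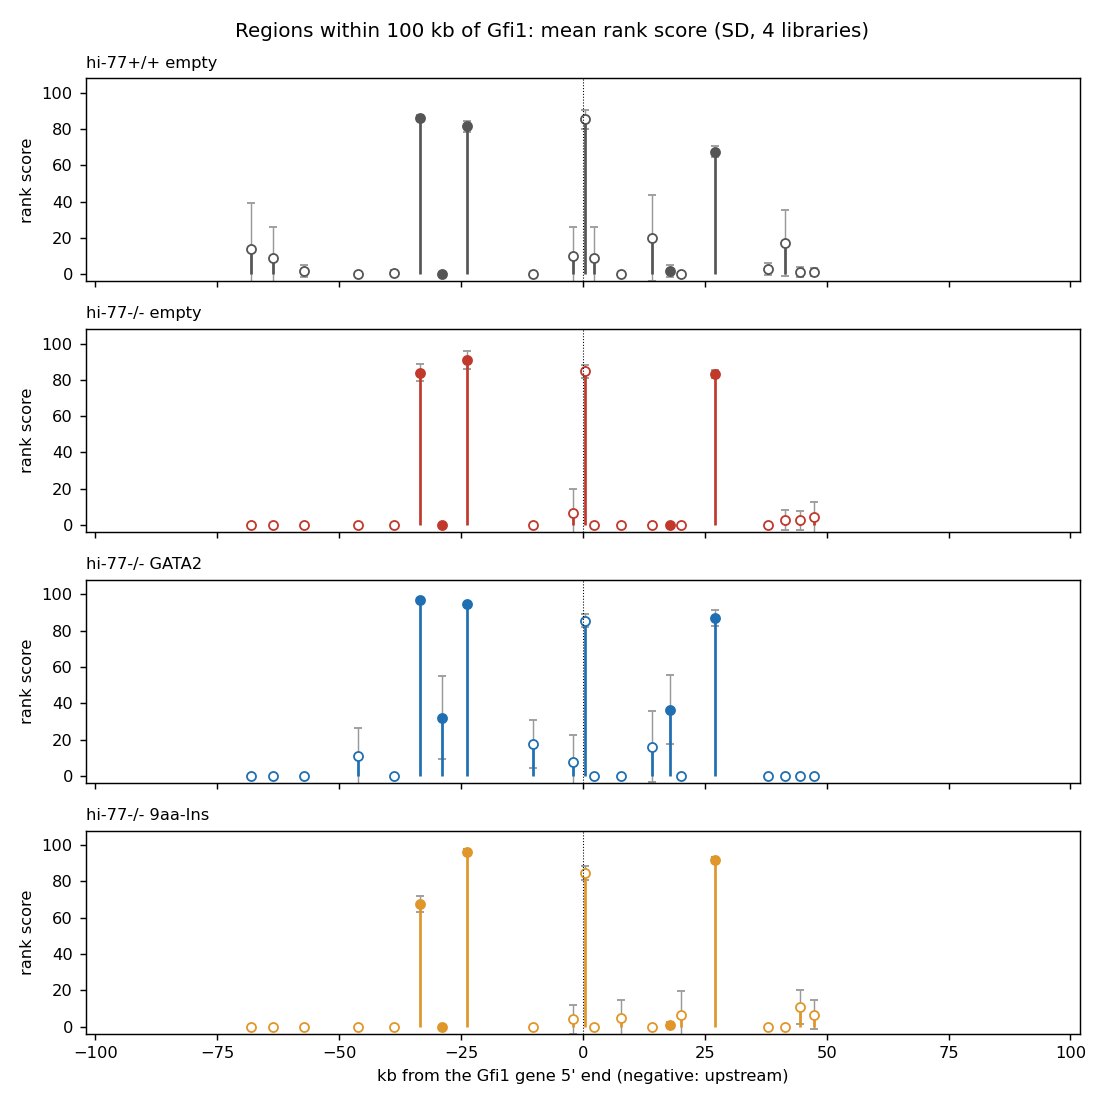
Mean rank score (vertical axis, 0 to 100) of the 21 regions within 100 kb of Gfi1 against distance from its 5′ end in kb (dotted line), in 1 panel per group, with the SD of 4 libraries; filled points mark the 5 regions called in at least 1 comparison. The stem at -33.5 kb is at 97.1 in the GATA2 panel and 67.8 in the 9aa-Ins panel, and the stems at +17.8 and -28.9 kb rise to 36.5 and 32.1 in the GATA2 panel alone among group means above 2.

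With the deletion, 2 of 11 Gfi1 regions tested were higher in hi-77-/- empty than in hi-77+/+ empty and 0 were lower, where 21.3% of all regions tested were higher and 19.1% lower. The intergenic Gfi1 +27.0 kb region (chr5:107698417-107699572) scored 64.8, 71.1, 65.0 and 69.8 in hi-77+/+ empty and 80.8, 86.5, 82.5 and 83.6 in hi-77-/- empty libraries, without overlap (difference 15.6, SE 2.22, adjusted p = 2.61e-05). It scored 81.6, 91.3, 89.8 and 85.5 with GATA2 and 89.8, 92.7, 93.5 and 90.8 with 9aa-Ins. The 9aa-Ins values were above all hi-77-/- empty values by a smaller step of 8.34 (adjusted p = 0.0257), the 1 Gfi1 region higher with 9aa-Ins (5.37% of all regions tested). This 9aa-Ins call was lost without hi-77-/- empty replicate 1, 3 or 4 or 9aa-Ins replicate 2, 3 or 4, with differences of 7.49 to 8.65 (adjusted p of 0.0532 to 0.0973).

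The Gfi1 -23.8 kb region (chr5:107749034-107750549, Evi5 intron) scored 79.1 to 86.3 in hi-77+/+ empty and 83.6 to 95.5 in hi-77-/- empty libraries, with overlapping ranges (difference 9.51, SE 2.02, adjusted p = 0.00112). It scored 93.9 to 95.7 with GATA2 and 93.7 to 97.8 with 9aa-Ins, and neither differed from hi-77-/- empty by the test (adjusted p = 0.226 and 0.147). With -33.5 kb and +27.0 kb it was among the 3 Gfi1 regions of highest median score. When peaks of 1 kb or wider were left out, the deletion difference at -23.8 kb turned to -16.4 (adjusted p = 0.720) and at +27.0 kb it was no longer called (14.1, adjusted p = 0.546). When a peak had to cover 50% of the region, neither was called (43.9, adjusted p = 0.190, and 42.5, adjusted p = 0.0788), nor was the 9aa-Ins difference at +27.0 kb (49.2, adjusted p = 0.0957).

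The region over the Gfi1 promoter (chr5:107723920-107727345) covers the 5′ end and the first exons. It scored 89.8, 78.1, 88.5 and 85.1 in hi-77+/+ empty, 80.8, 86.5, 82.5 and 89.1 in hi-77-/- empty, 85.3, 90.6, 83.2 and 82.8 in GATA2 and 90.4, 83.7, 81.9 and 83.0 in 9aa-Ins libraries. All 4 ranges overlapped, and the differences were -0.656 to 0.779 with an SE of 2.67 (adjusted p of 0.901 to 1). The score tracks the summit of a peak and not its width, which ran from 573 to 3411 bp here. The 573 bp peak (chr5:107724001-107724573) gave the 78.1 of hi-77+/+ empty replicate 2 and does not reach the 5′ end at 107726036. That score is therefore not of the promoter itself.

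Around Gfi1b, 14 of 26 regions tested were called for the deletion, 12 higher in hi-77-/- empty and 2 lower (40.4% of all regions tested were called). The median difference over the 26 regions was 10.6, beside 0 over all regions tested. The median rank score of chromosome 2 peaks was 46.4 to 47.7 in hi-77+/+ empty and 43.7 to 47.3 in hi-77-/- empty libraries, ranges that overlapped. Whether a shift of the chromosome, or of the part around Gfi1b, adds to these calls was not tested. It was 43.2 to 52.0 in GATA2 and 45.6 to 49.8 in 9aa-Ins libraries, and with ranks taken within the chromosome 0 of the 37 calls followed through the alternatives, over both genes and all comparisons, were lost.

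Within the Gfi1b gene, the +3.0 kb region (chr2:28618456-28619458, intron) showed the largest deletion difference among the 15 Gfi1b members present in all 16 libraries. It scored 42.0, 40.3, 29.0 and 10.3 in hi-77+/+ empty and 79.7, 78.2, 74.4 and 81.9 in hi-77-/- empty libraries. All hi-77-/- values were above all hi-77+/+ values, by 48.1 on average (SE 5.40, adjusted p = 2.25e-06). With GATA2 it scored 73.9, 81.6, 76.4 and 84.7, and with 9aa-Ins 80.6, 88.4, 82.1 and 83.2. Neither group differed from hi-77-/- empty by the test (0.615, adjusted p = 0.994, and 5.05, adjusted p = 0.769), so the hi-77+/+ empty group stood apart at this intron. When a peak had to cover 50% of the region, the deletion difference was 41.3 and not called (adjusted p = 0.159).

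The Gfi1b promoter region (chr2:28621595-28622279), which holds the 5′ end and untranslated sequence of the first exon, scored 82.0, 87.5, 79.5 and 84.0 in hi-77+/+ empty and 93.1, 89.1, 92.8 and 89.8 in hi-77-/- empty libraries. The 2 groups did not overlap, and the difference was 7.97 (SE 1.98, adjusted p = 0.00373). With GATA2 it scored 82.4 to 92.7 and with 9aa-Ins 86.2 to 87.1, and neither difference from hi-77-/- empty was called (adjusted p = 0.443 and 0.245). The adjoining region at -0.6 kb (chr2:28622399-28622816) scored 0 to 59.2 over the 16 libraries and was called in no comparison.

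Downstream of Gfi1b, 2 regions were among the most significant peaks of the hi-77-/- empty libraries. The +23.0 kb region (chr2:28597748-28600116) scored 98.0 to 99.0 in them, against 76, 80.5, 70.4 and 60.7 in hi-77+/+ empty (difference 26.6, SE 2.78, adjusted p = 1.07e-06). It scored 86.6, 91.5, 87.0 and 91.4 with GATA2, all below hi-77-/- empty and above hi-77+/+ empty (GATA2 minus hi-77-/- empty -9.36, adjusted p = 0.0211). The +30.3 kb region (chr2:28590950-28592368) behaved alike, with 67.6 to 82.0 in hi-77+/+ empty, 95.6 to 98.8 in hi-77-/- empty and 86.6 to 92.5 in GATA2 libraries (differences 20.3, adjusted p = 2.62e-06, and -7.42, adjusted p = 0.0274). The GATA2 call was lost without GATA2 replicate 1 or 3 at +23.0 kb (-8.52 and -8.66, adjusted p = 0.0630 and 0.0610) and, at +30.3 kb, without either of these or hi-77-/- empty replicate 1, 2 or 3 (-6.24 to -7.45, adjusted p of 0.0529 to 0.0924). With no filter on the number of libraries neither GATA2 call remained (adjusted p = 0.0591 and 0.0716), and with a 50% overlap both +30.3 kb differences were lost (adjusted p = 0.0646 and 0.471). With 9aa-Ins these regions scored 93.3 to 95.8 and 94.6 to 97.0, between GATA2 and hi-77-/- empty in their means, and were called against neither (adjusted p of 0.113 to 0.768). The peaks are wide, up to 2228 bp at +23.0 kb. When peaks of 1 kb or wider were left out, both pairs of differences turned sign (+23.0 kb: -20.6 and 50.3; +30.3 kb: -57.9 and 68.6), because the widest peaks, mostly those of hi-77-/- empty and 9aa-Ins libraries, were removed.

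The Gfi1b +15.8 kb region (chr2:28605887-28606437, intergenic, beyond the 3′ end) was the 1 member open in 4 of 4 hi-77-/- empty and 0 of 4 hi-77+/+ empty libraries, a pattern seen in 3.59% of all regions. It scored 66.0, 63.3, 67.0 and 70.7 in hi-77-/- empty libraries and 0 in all hi-77+/+ empty and all GATA2 libraries, the latter a loss against hi-77-/- empty seen in 2.23% of all regions. In 9aa-Ins libraries it scored 3.29, 24.9, 21.2 and 30.2, between the other groups and without overlap with any. The differences were 66.8 for the deletion (SE 5.91, adjusted p = 1.90e-07), -66.8 for GATA2 (adjusted p = 3.03e-07) and -46.8 for 9aa-Ins (adjusted p = 5.20e-05) against hi-77-/- empty, and 19.9 for 9aa-Ins minus GATA2 (adjusted p = 0.0186). In the full lists a peak was present in 1 hi-77+/+ empty, 4 hi-77-/- empty, 2 GATA2 and 4 9aa-Ins libraries. With the full lists the difference between 9aa-Ins and hi-77-/- empty was -20.5 and no longer called (adjusted p = 0.423), whereas the GATA2 difference was -61.6 (adjusted p = 0.000722). Without 9aa-Ins replicate 2 or replicate 4 the difference between 9aa-Ins and GATA2 was not called (18.2, adjusted p = 0.0585, and 16.5, adjusted p = 0.0728), nor was it on a log2 rank scale (adjusted p = 0.0897) or with lists 50% as long, where both groups scored 0.

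This region was the 1 Gfi1b member called between 9aa-Ins and hi-77-/- empty, where 7.25% of all regions tested were called and 1.88% were lower. Between these 2 groups 0 of 56 members went from 0 of 4 to 4 of 4 libraries or the reverse, against 1.35% and 0.171% of all regions. Over both genes 3 of 37 regions were called in that comparison, against 11 of 37 for GATA2 minus hi-77-/- empty (21% of all regions tested) and 9 of 37 for 9aa-Ins minus GATA2 (24.2% of all regions tested). Of the 26 Gfi1b regions tested, 8 were called with GATA2, 6 lower and 2 higher than in hi-77-/- empty. Over all regions tested, 12.4% were lower and 8.52% higher. The 2 higher include +25.7 kb, which passed the filter only through the GATA2 libraries. Of the 6 called between 9aa-Ins and GATA2, 4 were higher with 9aa-Ins (16% of all regions tested). The other 2 were lower (8.23% of all regions tested), again with +25.7 kb among them.

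At the far downstream side, 2 regions in introns of Ralgds, which encodes an exchange factor for Ral GTPases, had low scores with GATA2. The +83.6 kb region (chr2:28538059-28538789) scored 51.8, 21.7, 47.8 and 46.3 in hi-77+/+ empty and 76.9, 76.9, 81.6 and 80.0 in hi-77-/- empty libraries. It scored 0, 28.4, 10.2 and 17.5 with GATA2 and 70.2, 67.4, 66.2 and 72.6 with 9aa-Ins. GATA2 and hi-77-/- empty did not overlap (-64.8, SE 7.17, adjusted p = 3.01e-06), nor did GATA2 and 9aa-Ins (9aa-Ins minus GATA2 55.0, adjusted p = 1.83e-05). The difference of 9aa-Ins from hi-77-/- empty, -9.75, was not called (adjusted p = 0.579), and the deletion difference was 36.9 (adjusted p = 0.000527). With all deposited peaks the deletion difference was not called (16.2, adjusted p = 0.239), and with a 50% overlap the difference between 9aa-Ins and GATA2 was not (34.4, adjusted p = 0.0835).

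The +96.0 kb region (chr2:28525161-28526872) scored 12.2 in 1 GATA2 library and 0 in the other 3. It scored 51.1 to 62.5 in hi-77-/- empty and 47.2 to 67.7 in 9aa-Ins libraries, ranges that overlapped. GATA2 minus hi-77-/- empty was -54.6 (SE 7.44, adjusted p = 2.72e-05) and 9aa-Ins minus GATA2 was 52.9 (adjusted p = 3.94e-05). The hi-77+/+ empty libraries scored 22.5 to 51.8, and the deletion difference of 18.3 was not called (adjusted p = 0.0588). The full lists held a peak in 2 GATA2 libraries and in all 12 others. Both calls were lost without peaks of 1 kb or wider (-25.6, adjusted p = 0.342, and 25.2, adjusted p = 0.297) and with lists 50% as long (-15.4, adjusted p = 0.0917, and 13.3, adjusted p = 0.139).

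Upstream of Gfi1b, a pair of neighbouring regions differed in opposite directions with GATA2. The -79.9 kb region (chr2:28701564-28702141) lies in an intron of Ak8, an adenylate kinase gene. It scored 60.6, 63.0, 67.6 and 69.2 with GATA2. It scored 42.0, 0, 8.62 and 0 in hi-77+/+ empty, 0, 0, 0 and 28.2 in hi-77-/- empty and 0, 0, 0 and 1.21 in 9aa-Ins libraries. Every GATA2 value was above every other value, by 58.1 on average over hi-77-/- empty (SE 8.62, adjusted p = 6.53e-05), and 9aa-Ins minus GATA2 was -64.8 (adjusted p = 2.26e-05). With all deposited peaks it was open in 3, 3, 4 and 3 libraries, and the GATA2 difference of 47.7 was not called (adjusted p = 0.0574).

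The -76.8 kb region (chr2:28698460-28699077, intron of the sperm acrosome gene Spaca9) scored 12.2, 36.7, 46.9 and 27.3 with GATA2, below all hi-77-/- empty values of 58.2, 76.9, 72.7 and 66.1 and all 9aa-Ins values of 64.6 to 64.8. The differences were -37.7 for GATA2 (SE 8.31, adjusted p = 0.00264), 34.0 for 9aa-Ins minus GATA2 (adjusted p = 0.00520) and 24.3 for the deletion (adjusted p = 0.0266), which was lost without hi-77-/- empty replicate 2 or 3 or hi-77+/+ empty replicate 3 (16.2 to 22.8, adjusted p of 0.0623 to 0.10), with a q minimum (16.6, adjusted p = 0.218) and without peaks of 1 kb or wider (23.2, adjusted p = 0.0557). The intergenic +25.7 kb region (chr2:28596107-28596397) was the other Gfi1b member with higher scores with GATA2, and passed the filter only through these libraries. It scored 32.1, 4.28, 32.9 and 17.5 there, 7.44 in 1 hi-77-/- empty library and 0 in the remaining 11 libraries. A peak in 4 of 4 GATA2 and 0 of 4 9aa-Ins libraries, as here and at Gfi1 -28.9 kb, was seen in 1.47% of all regions. At each of these regions 1 GATA2 peak only tied with the -log10 p of peak 49000 of its library. These were replicate 2 here (7.11) and replicate 1 at Gfi1 -28.9 kb (5.35). In the full lists +25.7 kb had a peak in 0 hi-77+/+ empty, 2 hi-77-/- empty, 4 GATA2 and 2 9aa-Ins libraries.

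**Figure D3:**
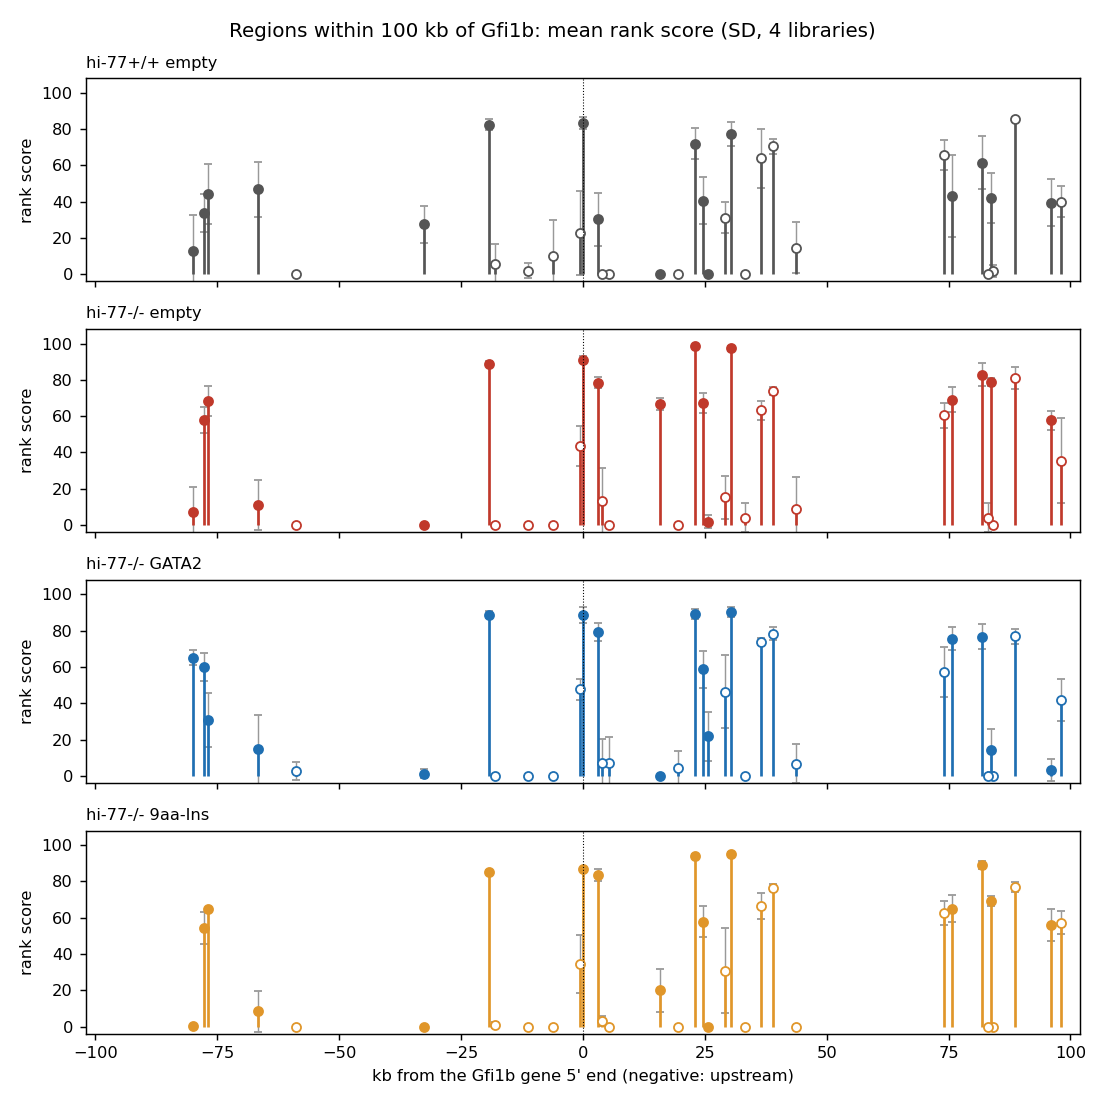
Mean rank score (vertical axis, 0 to 100) of the 35 regions within 100 kb of Gfi1b against distance from its 5′ end in kb (dotted line), in 1 panel per group, with the SD of 4 libraries; filled points mark the 17 regions called in at least 1 comparison. The stem at +15.8 kb reaches 66.8 in the hi-77-/- empty panel and 19.9 in the 9aa-Ins panel and is 0 in the other panels, and the stem at -79.9 kb is at 65.1 in the GATA2 panel and at 12.7 or below elsewhere.

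The other Gfi1b regions called with the deletion were higher at +24.6 kb (26.6, adjusted p = 0.00595), +75.7 kb (26.2, adjusted p = 0.0159), +81.8 kb (21.4, adjusted p = 0.00414), -77.6 kb (24.1, adjusted p = 0.00938) and -19.2 kb (6.55, adjusted p = 0.00315). With a 50% overlap the calls at +81.8 and -19.2 kb were lost (adjusted p = 0.102 and 0.113), and without peaks of 1 kb or wider the -19.2 kb difference turned to -19.5 (adjusted p = 0.642). The -19.2 kb region holds the promoter of Tsc1, which encodes hamartin, and scored 79.5 to 86.5 in hi-77+/+ empty and 87.5 to 91.0 in hi-77-/- empty libraries. The 2 regions that were lower lie in Tsc1. The -32.5 kb region (chr2:28654393-28654591, intron) scored 18.7, 32.0, 19.9 and 39.8 in hi-77+/+ empty and 0 in all hi-77-/- empty libraries, a loss from 4 of 4 to 0 of 4 libraries seen in 2.11% of all regions. It scored 0 in all 9aa-Ins libraries and in 3 of 4 GATA2 libraries, with 4.82 in the fourth. The -66.7 kb region scored 35.8, 32.0, 62.8 and 56.6 in hi-77+/+ empty and 28.1, 16.5, 0 and 0 in hi-77-/- empty libraries (-35.7, SE 9.88, adjusted p = 0.00788). With all deposited peaks this difference was -43.7 and not called (adjusted p = 0.0740). Neither GATA2 nor 9aa-Ins was called against hi-77-/- empty at -66.7 kb (adjusted p = 0.894 and 0.992).

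**Figure D4:**
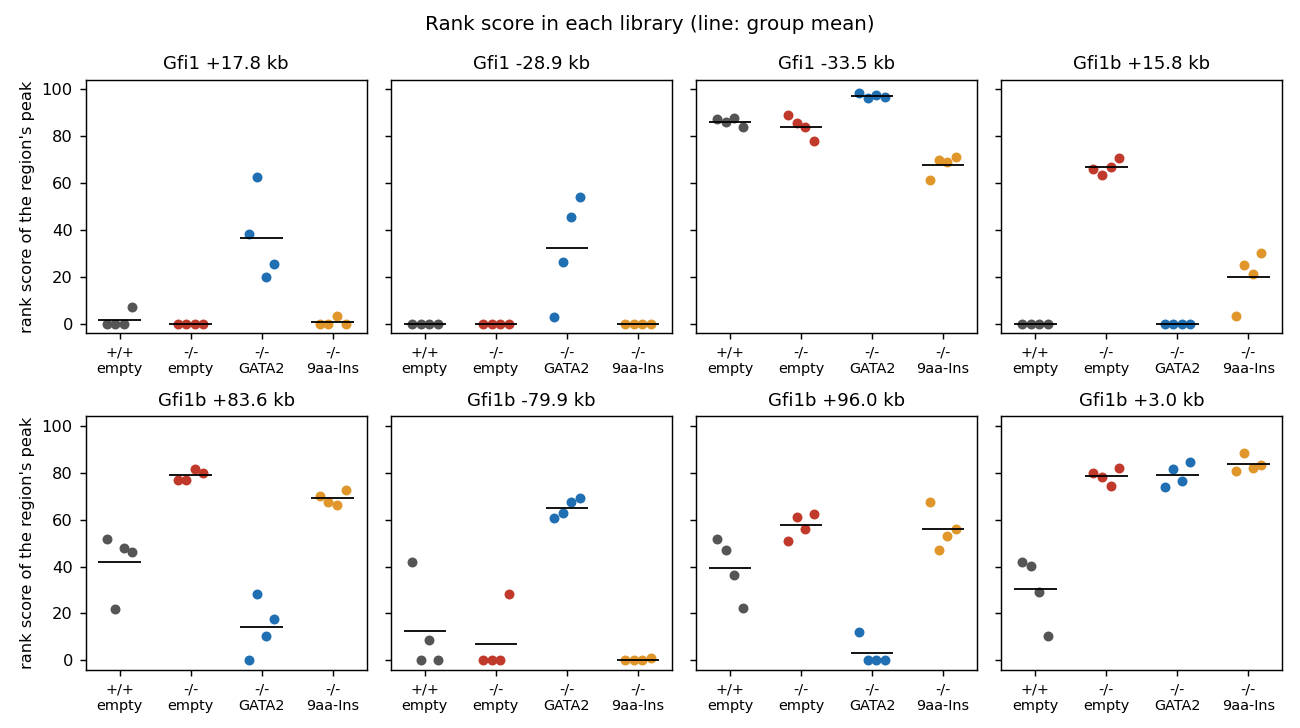
Rank score (vertical axis, 0 to 100) of 8 member regions, 1 point per library, with the group mean as a line. GATA2 points lie above all others for Gfi1 +17.8, -28.9 and -33.5 kb and Gfi1b -79.9 kb and below all others for Gfi1b +96.0 kb, at Gfi1b +83.6 kb they overlap 1 hi-77+/+ empty point at 21.7, the 9aa-Ins points lie lowest at Gfi1 -33.5 kb, and the hi-77+/+ empty points lie lowest at Gfi1b +3.0 kb.

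Regions in all 16 libraries that no comparison called were, around Gfi1b, +98.0, +88.6, +74.0, +39.0 and +36.6 kb. The +88.6 kb region over coding exons of Ralgds scored 71.8 to 87.1, and the +39.0 kb region over an exon of Gtf3c5 scored 65.6 to 82.4. Around Gfi1, 10 regions had a peak in 1 to 3 libraries and were not tested. Of these, -10.3 kb was open in 3 GATA2 libraries (30.1, 15.1 and 25.4) and -46.2 kb in 3 GATA2 libraries (2.82, 7.62 and 33.6), each with 0 in all 13 others. Regions at +38.0 and -68.1 kb had a top-49000 peak only in 2 hi-77+/+ empty libraries each. Those at +2.3, -38.7, -57.1 and -63.6 kb had one only in 1 hi-77+/+ empty library each, and +20.1 and +7.8 kb only in 1 9aa-Ins library each. The full lists held a peak in all 4 9aa-Ins libraries at +20.1 and +7.8 kb, and in 1 GATA2 library at +7.8 kb. At +38.0 and -68.1 kb they held one in all 4 hi-77+/+ empty libraries. At -10.3 kb they held one in 2 hi-77+/+ empty, 1 hi-77-/- empty, 3 GATA2 and 1 9aa-Ins libraries. At -46.2 kb these numbers were 1, 0, 4 and 1.

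Accessible regions were also counted around genes of the GFI1 pathway, with the same test per gene. Of 12 genes that encode corepressors used by GFI1 proteins, 2 had fewer open regions with the deletion (Rcor2 and Gse1) and 0 more, where 21.4% of all genes had fewer. With GATA2, 1 of 12 had fewer (Gse1, 20, 20, 20 and 21 in hi-77-/- empty and 17, 18, 15 and 14 in GATA2 libraries), where 6.50% of all genes had fewer. With 9aa-Ins 0 of 12 were called against either hi-77-/- empty or GATA2, where 2.05% and 13.5% of all genes were. At Kdm1a, which encodes the demethylase LSD1, the count was 10 to 12 in hi-77-/- empty and 9 to 14 in GATA2 libraries (adjusted p = 0.782). The median difference of the 12 genes was -0.75, 0.50, 0 and 0 in the 4 comparisons in the order used above, beside -0.25, 0, 0.25 and 0.25 over all genes.

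Of 13 genes for factors that occupy hematopoietic enhancers with GATA2, 3 had more open regions with GATA2 than with empty vector in hi-77-/- cells (Gata1, Gata2 and Myb) and 0 fewer, where 4.88% of all genes had more. Myb, a factor required in progenitors, had 12, 11, 11 and 13 open regions in hi-77-/- empty, 21, 21, 24 and 20 with GATA2 and 13, 15, 15 and 15 with 9aa-Ins. GATA2 exceeded the other hi-77-/- groups without overlap (9.75, SE 1.10, adjusted p = 0.000141, and 9aa-Ins minus GATA2 -7.00, adjusted p = 0.00130). The hi-77+/+ empty libraries had 12, 11, 16 and 11 at Myb, also below every GATA2 value. Gata2 itself was the 1 gene of this list with more open regions with 9aa-Ins (21 to 23, against 16 to 18 in hi-77-/- empty, adjusted p = 0.00957), where 1.91% of all genes had more and 0.145% fewer. The vectors carry Gata2 cDNA, whose part in this count was not tested. With the deletion, 2 of 13 had more (Runx1 and Lmo2) and 3 fewer (Lyl1, Cbfb and Ldb1), where 11.2% of all genes had more and 21.4% fewer. Between 9aa-Ins and GATA2, 3 had fewer (Gata1, Myb and Meis1), where 3.12% of all genes had fewer. The medians of the 13 genes were -0.75, 1, 0.50 and -0.50.

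Of 18 genes described as repressed by GFI1 proteins, 5 had fewer open regions with GATA2 than with empty vector in hi-77-/- cells (Csf1, Id2, Irf8, Egr2 and Hoxa9) and 2 more (Egr1 and Cebpe), where 6.50% of all genes had fewer and 4.88% more. Irf8, a regulator of the monocyte and dendritic cell fate, had 18, 19, 22 and 19 open regions in hi-77-/- empty, 11, 13, 13 and 12 with GATA2 and 17, 18, 18 and 20 with 9aa-Ins. GATA2 lay below both other hi-77-/- groups (-7.25, SE 0.891, adjusted p = 0.000271, and 9aa-Ins minus GATA2 6, adjusted p = 0.000821). The hi-77+/+ empty libraries had 20, 20, 18 and 20 at Irf8, also above every GATA2 value. With 9aa-Ins, 0 of 18 were called against hi-77-/- empty, where 2.05% of all genes were, and 5 had more open regions than with GATA2 (Csf1, Csf1r, Id2, Irf8 and Egr2, where 10.4% of all genes had more) and 2 fewer (Egr1 and Meis1, where 3.12% had fewer). With the deletion, 6 had more (Csf1, Csf1r, Id2, Egr2, Hoxa9 and Socs3, where 11.2% of all genes had more) and 1 fewer (Egr1, where 21.4% had fewer). The medians of the 18 genes were 1.88, -0.75, 0.75 and 0.875. These counts concern chromatin around the genes, and no binding of GFI1 proteins was measured in these libraries.

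The genes on other chromosomes whose counts of open regions most resembled those of Gfi1 over the 16 libraries were Slc17a5 (Pearson r = 0.890), Birc3 (0.873) and Cd109 (0.866), among 11955 genes with a mean of at least 5 open regions. All of these lie on chromosome 9, and whether any of their windows share regions was not tested, so they may not be separate resemblances. For Gfi1b they were Nexn (0.884), Dglucy (0.820) and Car6 (0.782), among 11664 such genes. These are descriptions over 16 libraries that share group, list length and cell population, with no test.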

How the data were processed

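ATAC-Seq libraries were sequenced on a NextSeq500. As the methods and the submitters' processing notes state, the authors trimmed reads with Trim Galore 0.4.1, aligned them to mm10 with Bowtie2 2.2.5, removed duplicates with Picard 2.26.0, kept unique reads, shifted read ends for the Tn5 cut, and called peaks per library with MACS2 without a local background. The deposited peak lists hold, per peak, the score, the fold enrichment at the summit (a ratio), the -log10 p-value and -log10 q-value, and the summit offset, and no counts, so neither depth nor counting error is known and no interval is given. The authors' reproducibility filter and width limit were not applied to these lists.

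Peaks on chromosomes 1 to 19 and X were ordered by -log10 p, then fold and position, and the top 49000 per library were merged where they overlapped by at least 1 bp (Python 3.11.15, pandas 2.3.3). Rank scores, and counts of open regions within 100 kb for 21755 protein-coding genes, were fitted over all 16 libraries with limma 3.58.1 (trended variance, R 4.3.3). Regions or genes with a region open in at least 4 libraries were tested, with Benjamini-Hochberg adjustment over all of them, and called at an adjusted p under 0.05. The fits were also run on simulated data with normal noise. Shifts were added there only to regions or genes with a peak in all 16 libraries. Recovery at regions absent from some libraries was therefore not examined.

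The members, lists and motifs were chosen with earlier results of these data known. Regions described are those at the promoters, those called (up to 15 per gene by adjusted p), those with 4 of 4 against 0 of 4 libraries, and the 3 of highest median score per gene. Further regions, such as Gfi1b +75.7 and -77.6 kb, were added after their values were seen. Alternatives were all deposited peaks, fewer peaks, a q minimum, a width limit, an overlap minimum, other rankings and scales, no filter, another window, bases covered, a replicate block and each library left out. Deviations of same-numbered libraries correlated weakly (-0.0542 to 0.0912), so no replicate pairing was used in the main fit.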

Additional observations from a re-analysis of the deposited data

Results flagged for a closer look

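Of 86 groups of 4 libraries examined for a single outlying library, 9 had one. Chance gives about 1 in 20 for values without ties. Where 3 values are tied, any other value is flagged whatever its size, so the 9 cannot be set against that rate. In 7 of the 9, 3 libraries of the group had no peak at the region among their top 49000 and 1 had a low score; the full lists held further peaks at some of them. These were Gfi1 +17.8 kb in hi-77+/+ empty (6.95 against 0) and in 9aa-Ins (3.18), Gfi1b +96.0 kb in GATA2 (12.2), Gfi1b +25.7 kb in hi-77-/- empty (7.44), Gfi1b -32.5 kb in GATA2 (4.82), and Gfi1b -79.9 kb in hi-77-/- empty (28.2) and in 9aa-Ins (1.21). At Gfi1b +23.0 kb, 1 9aa-Ins library scored 95.8 and the other 3 scored 93.3 to 93.6. The number of open regions around Gfi1 was 8 in 1 GATA2 library and 9 in the other 3.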

How the results depend on the processing

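Of 37 calls followed through the alternatives, 11 kept direction and call under every alternative and 26 did not under at least 1. Of the 37, 7 were at the 4 regions that passed the filter through 1 group. The deletion calls at Gfi1b +75.7 and -77.6 kb were described but not followed. Ranking by fold enrichment, ranking within the chromosome and the replicate block lost 0 of 37. All deposited peaks lost 6, no filter 2, the q minimum 3, a log2 rank scale 1, 1 library left out 5, a 50% overlap 13 of 35 with a value, lists 50% as long 3 of 29, and leaving out peaks of 1 kb or wider 11, of which 7 turned sign: Gfi1 +27.0 kb for 9aa-Ins (-15.8), Gfi1 -23.8 kb (-16.4), Gfi1b +23.0 kb (-20.6) and +30.3 kb (-57.9) and -19.2 kb (-19.5) for the deletion, and Gfi1b +23.0 kb (50.3) and +30.3 kb (68.6) for GATA2. The width limit removes the peak itself, and a 50% overlap drops narrow peaks in wide regions; other causes were not tested.

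Member calls for the deletion, GATA2, 9aa-Ins and 9aa-Ins minus GATA2 (16, 11, 3 and 9) were 9 for the deletion and 7 for GATA2 with a 50% overlap, 10 for the deletion without wide peaks, 7 for GATA2 and 4 for 9aa-Ins minus GATA2 with the shorter lists, and 5 for 9aa-Ins on a log2 rank scale. Calls over all regions (23071, 11982, 4146 and 13846) were 13077, 6393, 2553 and 7201 with the shorter lists, and 13499 and 7347 for the first 2 with a 50% overlap. Without 1 library, member calls ran from 15 to 18, 8 to 12, 2 to 3 and 8 to 12, and calls over all regions from 19431 to 23424, 9647 to 12261, 2694 to 4209 and 11314 to 14131; the value of 2694 was without 9aa-Ins replicate 3.

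Members with a peak in 4 of 4 against 0 of 4 libraries (2, 3, 0 and 3) numbered 4, 1, 2 and 1 with all deposited peaks, on the same or rebuilt regions. Without wide peaks they were 1 for GATA2 and 0 for 9aa-Ins minus GATA2, with the shorter lists 5 for GATA2 and 1 for 9aa-Ins, and with a -log10 q of at least 5, 1 for 9aa-Ins.

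The Gfi1 count of open regions for the deletion (-3.50) was -1.50 with a 50% overlap, -0.25 with the shorter lists and -686 as bases covered, none called. For GATA2 (3.75) it was 4 with rebuilt regions, 3.50 with all peaks and 0.50 with the shorter lists, none called. For 9aa-Ins (1.25) it was called at 7.25 with rebuilt regions, 5.25 with all peaks, 4.25 with the q minimum and 1504.5 as bases covered. For 9aa-Ins minus GATA2 (-2.50) it was called at -2.50 within 50 kb, turned to 3.25 with rebuilt regions and 1.75 with all peaks, neither called, and was called at 1.75 with the q minimum. Without 1 library the 4 differences ran from -4 to -3, 3.42 to 4.08, 0.667 to 2.00 and -3.08 to -1.75, the last called without 9aa-Ins replicate 3 (-3.08), hi-77+/+ empty replicate 1 or hi-77+/+ empty replicate 3 (-2.50).

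The Gfi1b count for the deletion (-0.75) was 6 with the shorter lists and 3498 as bases covered, both called, and 5.25 with a 50% overlap, not called. For GATA2 (0) it was called at -3.00 with the shorter lists. For 9aa-Ins (-0.25) it was 2.75 with rebuilt regions, 1 with all peaks, 1140.25 as bases covered, 1.25 with a 50% overlap or the q minimum and 0.50 without wide peaks, none called. For 9aa-Ins minus GATA2 (-0.25) it was 4 with rebuilt regions and 1.5 with all peaks, not called, and 4174.25 as bases covered, 6.75 with a 50% overlap, 2.50 with the q minimum and 2.50 with the shorter lists, all called. Without 1 library the differences ran from -1.42 to -0.333, -0.583 to 0.417, -0.667 to 0.0833 and -0.667 to 0.333.

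Same-numbered libraries of different groups had correlations of deviations of -0.0542 to 0.0912 over 24 pairs (median 0.000695). The 72 other pairs had -0.0593 to 0.0665 (median 0.00237). Still, 8 of 16 libraries correlated best with one of their own number, although most candidates bore another number, so a weak pairing is not excluded. With the replicate block, member calls were 16, 11, 3 and 9, calls over all regions 22775, 11664, 3813 and 13512, and the Gfi1 and Gfi1b counts kept their calls. Peak lists without counts cannot separate a lost peak from one below the list's threshold, which differs between libraries.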
